A study of Oryza sativa Japonica Group with 9 samples.

Results

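Roots of rice (Oryza sativa Japonica, cultivar Nipponbare) kept short of nitrogen (N deficiency) or of phosphorus (P deficiency) were compared, as 1 pool, with roots given control nutrients. All 9 libraries of the series entered the comparison. The 3 N-deficient and 3 P-deficient libraries formed the pool of 6, and the 3 control libraries were counted once. Of 35902 genes in the 2 deposited tables, the 34285 held by both were used, and 32806 of them passed a filter on low values. The study asked which genes answer to both N and P supply. Its design text states biological replicates in each treatment. The labels give neither plant age nor length of treatment.

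Plants take up nitrogen and phosphorus through separate transporters, but the signals that report each nutrient meet in the root. Strigolactones, hormones that roots make and exude when nutrients are short, restrain shoot branching and attract mycorrhizal fungi. Rice also acquires iron by releasing deoxymugineic acid, a chelator made from nicotianamine, and by taking the iron chelate back up, and it can take up ferrous iron as well.

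Libraries held 17930928 to 22752358 reads assigned to these genes. Levels are normalised reads, that is, reads divided by 1 size factor per library, and they can be compared between libraries for 1 gene but not between genes. Differences are on the log2(value + 1) scale with their standard error (SE), which understates the change of low genes. "Rose", "fell" and "called" mean an adjusted p under 0.05 (limma, Benjamini-Hochberg over all genes tested). The leading principal component held 28.1% of the variance, with the control libraries at -72.3 to -65.2, the P-deficient ones at -0.0129 to 24.7 and the N-deficient ones at 49.8 to 72.4. The third component, with 16.0%, set P library 3 apart at 102.5, against -42.2 to 21.2 for the others. Summed levels of 44 photosynthesis genes, used as markers of green shoot tissue, were 29306, 46638 and 78990 in control, 11045, 13574 and 9631 under N deficiency and 32086, 22970 and 30967 under P deficiency. All N-deficient libraries lay below the controls in this sum, and the P-deficient ones overlapped control library 1. Of these markers, 7 of 44 fell (27 at an unadjusted p under 0.05) and 0 rose by limma, edgeR, DESeq2 or an unadjusted p. DESeq2 called 15 lower and a fit of 3 group means 23, and limma had 3, 0 and 0 falls without each control, 3, 2 and 3 falls without N libraries 1, 2 and 3 and 12 falls without P library 1. RBCS, the small subunit of Rubisco, was read in every library, at 6.65 to 67.9. The part of these markers in the results was not tested. Among 6 root markers, 0 were called by limma, edgeR, DESeq2 or an unadjusted p, with a median difference of -0.09. Their summed levels were 133420, 121164 and 125296 in control and 122464, 121387 and 121859 under N deficiency. Under P deficiency they were 153116, 144578 and 84135, so P library 3 was lowest of all.

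In the pool, 1401 genes (4.27% of those tested) were higher and 1224 (3.73%) were lower than in control, together 8.00%. A log2 difference of 1 or more was reached by 643 of the rises (1.96% of those tested) and by 594 of the falls (1.81%), while the median over all genes tested was -0.01. All 6 deficiency libraries lay above all 3 controls for 1337 of the 1401 and below them for 1192 of the 1224. Over all genes tested, 7.01% lay wholly above and 7.40% wholly below. The pooled test itself favours genes whose groups separate, so the separation of called genes is no added support for the calls. In bulk roots, fewer cells of a type and less RNA per cell cannot be told apart. Without control library 1, 2 or 3 the higher calls came to 523, 482 and 813 and the lower ones to 479, 477 and 508. Without N library 2 the lower calls came to 806. Without P library 3 the higher and lower calls came to 1743 and 1561. Beside the count of a gene list stand its values without each control (libraries 1, 2 and 3 in turn) or without another library, where leaving it out moved the count by over 1.5 times. Moves between counts of 2 or less were left out, so such small counts can be unstable without being marked. Rises of sulfate transporters and of CCT and B-box factors, 2 in each list, were 0 without any 1 control.

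N minus P was tested within the fit of the 3 group means. Among all genes tested, 3.78% differed between the deficiencies (1241 genes). Of the 2625 genes called in the pool, 147 (5.60%) differed. For 1834 of the called genes (69.9%) the 95% interval of N minus P lay within 1 on the log2 scale, against 58.1% of all genes tested. The pooled test itself lowers the first share and raises the second, because a gap between N and P counts as spread inside the pool. When the mean of the N and P groups was set against control with group means fitted apart, 4098 genes were called (6.68% of those tested higher and 5.81% lower), 671 of them (16.4%) differed between N and P, and 109 lay on opposite sides of control. In that fit 59.8% of the called genes had the interval within 1, near the 58.1% of all genes, so no evenness of N and P is read from the pooled calls. Of the 147 genes, 82 were among the rises and 65 among the falls, and N deficiency lay further from control for 55 and 61 of these. The median rise was 1.01 in N minus control and 0.84 in P minus control, and the median fall was -1.03 and -0.92. Both values rest on the same control libraries. Tested apart in that fit, 11.8% of genes were called in N minus control and 7.97% in P minus control.

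**Figure D1:**
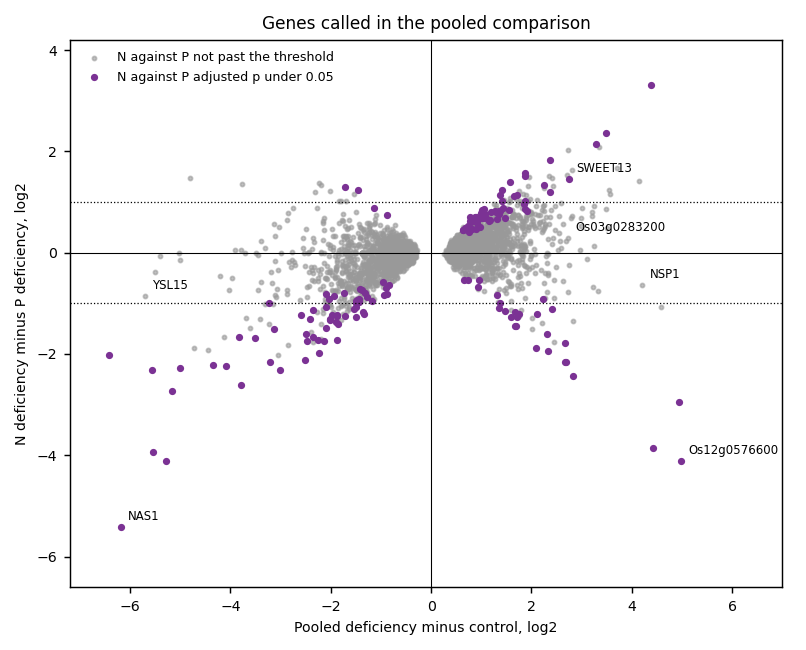
Each point is 1 of the 2625 called genes, with the pooled difference (log2) across and N minus P (log2) up. Purple points are the 147 genes whose N and P levels differed, dotted lines mark 1 in either direction, and most grey points lie between them.

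Ranked by the smaller of their N and P differences, the leading rises were led by NSP1 (Os03g0408600, chromosome 3, 16804298 to 16805869 in the deposited coordinates), a GRAS-domain regulator that rice needs to make strigolactones. NSP1 had 36, 36.8 and 45.3 normalised reads in the control libraries, 550.1, 583 and 653 under N deficiency and 1044, 1027 and 741 under P deficiency. The 6 deficiency libraries all lay more than 10 times above the controls, the P-deficient ones highest, and the pooled difference was 4.21 ± 0.22 (adjusted p = 6.7e-05). Second was Os10g0116800, with a calcineurin-like phosphoesterase domain as found in enzymes that release phosphate from esters, at 12.4, 4.72 and 11.8 normalised reads in the control libraries, 117, 91 and 121 under N deficiency and 796, 697 and 1108 under P deficiency. Every deficiency library exceeded every control. A lack of overlap with control was a condition for the genes ranked here and for called members picked from the lists. For Os10g0116800 P exceeded N, with N minus P at -2.96 (adjusted p = 5.1e-04).

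Os12g0576600, a purple acid phosphatase by its domains, split the same way. It had 6.74, 5.67 and 8.15 normalised reads in the control libraries, 48.2, 53.4 and 75.1 under N deficiency and 1132, 941 and 993 under P deficiency. Its N minus P was -4.12, and its pooled call (adjusted p = 0.024) was lost without any 1 control, at an adjusted p of up to 0.097. An unannotated terpene synthase locus (chromosome 4, 16006919 to 16013230) leaned the other way, with 8.99, 11.3 and 26.3 normalised reads in the control libraries, 1238, 744 and 1027 under N deficiency and 119, 93.9 and 84.5 under P deficiency. N minus P was 3.31, and the pooled call was lost without control library 1 or 2 (adjusted p up to 0.09).

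For the other leading rises named here, N minus P did not pass the test. Os03g0273200, a multicopper oxidase, the family of the laccases that polymerise lignin, had 137, 93.5 and 186 normalised reads in the control libraries, 2752, 4105 and 5162 under N deficiency and 799.6, 1171 and 3334 under P deficiency. N minus P was 1.41 (adjusted p = 0.15), and the P-deficient libraries spread widely, library 3 being highest. Os08g0298700 carries a male sterility protein domain, found in fatty acyl reductases that supply waxes and suberin, and stood at 9.87 ± 4.01 in control, 107 ± 36.7 under N and 93.9 ± 18.9 under P deficiency (mean ± SD, n = 3 each). Os12g0555100, with a polyketide cyclase and lipid transport domain, stood at 202 ± 99.6 in control, 3340.0 ± 647 under N and 1491 ± 217 under P deficiency. Os06g0185500, of the transferase family that includes BAHD acyltransferases, stood at 548 ± 229 in control, 6436 ± 2678 under N and 3811 ± 1125 under P deficiency. Their pooled differences were 3.25 ± 0.31, 3.57 ± 0.40 and 3.20 ± 0.38, with adjusted p at 7.2e-04, 0.0014 and 0.0018. The leucine-rich repeat gene Os07g0121200 (3.49), the dirigent gene Os08g0375400 (3.54) and the DnaJ gene Os01g0702450 (2.96) completed those called under every alternative setting. Os03g0291200, with a PMR5 domain of wall polysaccharide acetylation, rose by 3.70 ± 0.80 and lost its call without control library 2 or 3 (adjusted p up to 0.092).

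**Figure D2:**
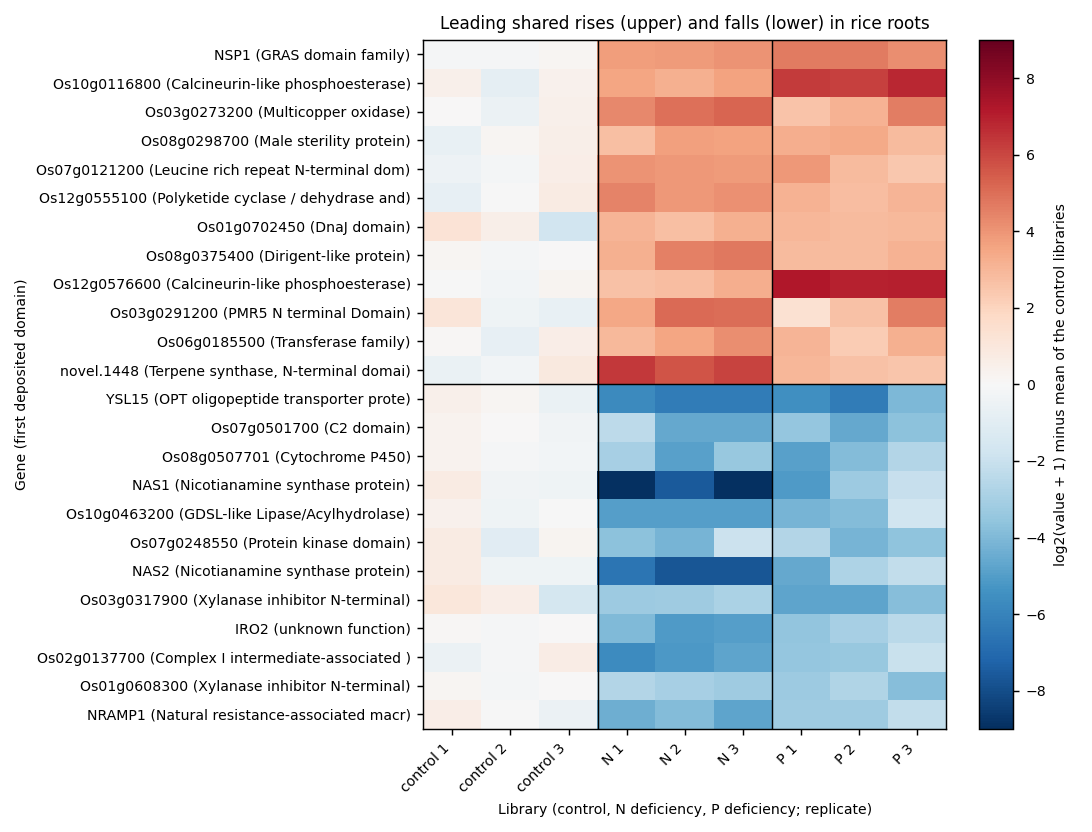
Rows are the 12 leading rises and 12 leading falls, columns the 9 libraries, and colour is log2(value + 1) minus the control mean. The 6 deficiency columns are red in every upper row and blue in every lower row, as the choice of these genes required. NAS1, NAS2 and the terpene synthase locus are stronger under N, and Os10g0116800 and Os12g0576600 are stronger under P.

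The leading falls began with YSL15 (Os02g0650300, chromosome 2, 26200136 to 26204468), the root transporter for iron bound to deoxymugineic acid. It had 214, 172 and 99.6 normalised reads in the control libraries, 1.85, 0.989 and 0.951 under N deficiency and 2.37, 1.02 and 8.55 under P deficiency. No deficiency library reached 10 normalised reads and no control lay under 99, and the pooled difference was -5.70 ± 0.52 (adjusted p = 6.6e-04). NRAMP1, a transporter of divalent metals, fell by 3.61 ± 0.51, from 500.2, 319 and 233 to 14.8, 21.8 and 11.4 under N and 35.5, 35.7 and 71.2 under P deficiency. Os02g0137700, whose domains include one of complex I assembly, had 2544, 3331 and 5781 normalised reads in the control libraries, 71.3, 99.9 and 135 under N deficiency and 326, 344 and 914 under P deficiency. N minus P there was -2.23 (adjusted p = 0.017), so its level was lower under N deficiency. Its control libraries stood in the order of the summed photosynthesis markers, lowest in library 1 and highest in library 3, and in both the N-deficient libraries were lowest. The P-deficient libraries overlapped control library 1 in that sum, whereas for this gene they lay below every control. The part of shoot-type RNA in this fall was not tested.

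For the other leading falls named here, N minus P did not pass the test either. Os01g0608300 and Os03g0317900, with domains named after xylanase inhibitors, changed by -3.11 ± 0.29 and -3.77 ± 0.65. A domain name alone does not show that they inhibit xylanases. Os01g0608300 went from 138, 109.6 and 126 to 19.4, 14.8 and 12.4 and 11.8, 18.4 and 7.60, with the N and P values overlapping. Os07g0501700 (C2 domain), Os08g0507701 (cytochrome P450), Os10g0463200 (GDSL lipase) and Os07g0248550 (protein kinase) changed by -3.90, -3.79, -4.13 and -3.38. Their N minus P values were between -1.66 and 0.23, and 0 of the 4 passed the test between the deficiencies (adjusted p = 0.17 to 0.98).

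Iron acquisition genes had the highest share of falls among the lists of at least 10 members. Of 16 tested, 8 fell (50%, against 3.73% of all genes) and 1 rose, with a median of -1.68. The 16 were listed by hand with earlier results of these data known, so this share is not a test of iron genes as a set. Without each control in turn 6 fell, and without P library 3 it was 10. Synthesis of the chelator came first. NAS1 and NAS2, neighbouring copies of nicotianamine synthase that may share reads, had control values of 1232, 613 and 563 and of 1389, 613 and 629. Under N deficiency they were at 0, 2.97 and 0 and 7.41, 2.97 and 2.85, and under P deficiency at 21.3, 77.6 and 177 and 31.9, 116 and 171. Both lay far lower under N than under P, with N minus P of -5.42 and -4.11 (adjusted p = 0.0028 and 0.0034). Their pooled calls (-6.18, adjusted p = 0.042, and -5.28, adjusted p = 0.026) were lost without any 1 control, and that of NAS1 also in DESeq2, with a pseudocount of 0.1 and without any 1 N library or P library 1, with adjusted p up to 0.15 and 0.11.

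NAAT1, the aminotransferase that acts on nicotianamine, had 1628, 1182 and 1422 normalised reads in the control libraries, 129.7, 113 and 80.9 under N deficiency and 174, 186 and 287 under P deficiency. The groups did not overlap, and the pooled difference was -3.22 ± 0.33 (adjusted p = 9.9e-04), with N further from control by -0.98 (adjusted p = 0.043). DMAS1, which completes deoxymugineic acid, fell by 1.43 ± 0.23. TOM1, named here for the exporter of the chelator, had 110.2, 78.4 and 47.1 in control, 3.70, 4.95 and 3.80 under N and 18.9, 22.5 and 43.7 under P deficiency, with an adjusted p of 0.053. NAS3, another nicotianamine synthase, rose by 1.02 ± 0.14, from 659.8, 759.7 and 805 to 1687, 1497 and 1905 and 1223, 1394 and 1402.

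Among transporters of ferrous iron, IRT2 had 7.87, 21.7 and 12.7 in control, was at 0 in all N-deficient libraries and had 3.55, 0 and 0 under P deficiency (adjusted p = 0.006). IRT1 was not called in the pool. It was at 190.0, 229 and 207 in control, 216, 207 and 293 under N and 115, 76.6 and 67.4 under P deficiency, so the P-deficient libraries lay below all others, and N minus P was 1.48 (adjusted p = 0.0036). Of the regulators, the locus deposited with the symbol IRO2 fell by 3.84 ± 0.53, from 408, 344 and 378 to 23.2, 9.89 and 11.4 and 30.8, 45.9 and 67.4. Its deposited domain is one of unknown function, whereas IRO2 is known as a bHLH factor. IRO3, a repressor of iron-deficiency genes, fell by 1.92 ± 0.25. HRZ2, a ubiquitin ligase that restrains the iron response, was at 809.6 ± 149 in control, 354 ± 72.1 under N and 675 ± 183 under P deficiency (adjusted p = 0.19).

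Of the storage genes, FER1 and FER2, ferritins that hold iron in plastids, had pooled differences of 0.29 ± 0.11 and 0.35 ± 0.12 (adjusted p = 0.13 and 0.11). VIT2, which moves iron into the vacuole, was at 202 ± 12.4 in control, 1096 ± 114 under N and 359 ± 37.5 under P deficiency, with N minus P of 1.61 (adjusted p = 3.7e-05) and a pooled adjusted p of 0.051. The wider list of metal transporters and ferritins, which includes many of these, held 7 rises and 11 falls among 123 members (5.69% and 8.94%). Over all genes tested these shares were 4.27% and 3.73%. The median of the list was -0.06, and there were 1, 1 and 3 rises and 7, 8 and 7 falls without each control and 4 rises without N library 2. In it Os04g0404400, with a ferritin-like domain, rose by 3.48 ± 0.67, and the call was lost without control library 1 or 2 (adjusted p up to 0.069).

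**Figure D3:**
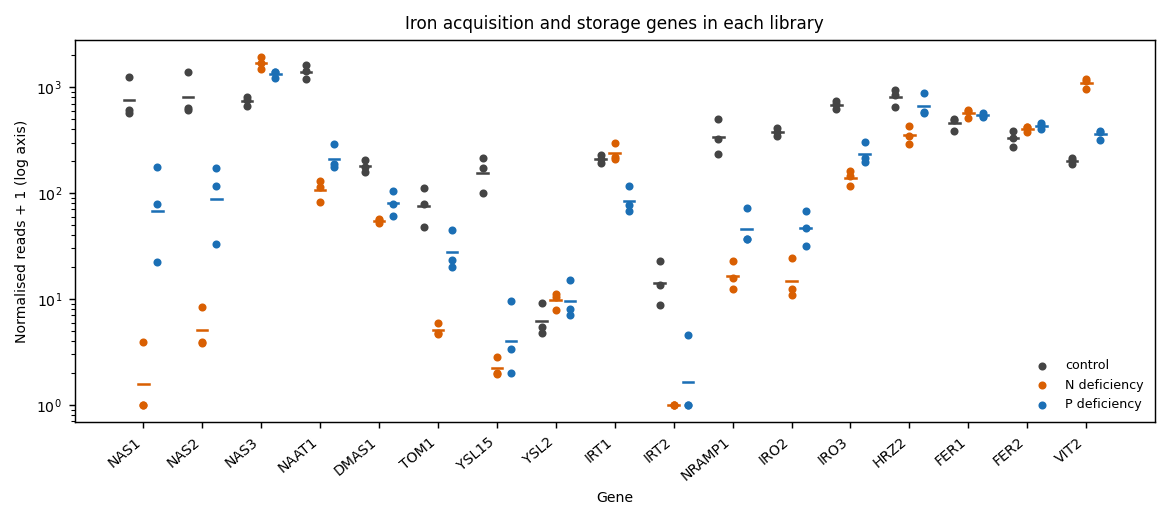
Normalised reads plus 1 on a log axis for 17 iron genes, with 3 points per group and a bar at their geometric mean. YSL15, NAAT1, NRAMP1, IRO2 and IRO3 lie below control in both deficiencies, NAS3 lies above, and IRT1 and VIT2 separate N from P.

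Among genes that take up the missing nutrients, the shares called in the pool lay near the 8.00% of all genes tested. Of 10 nitrate and ammonium uptake genes, 1 fell (10%) and 0 rose by limma (1 at an unadjusted p, 0 by edgeR and 3 by DESeq2), while 9 differed between N and P. The fit of 3 group means called 5 of the 10 higher and 1 lower. NRT2.4, a high-affinity nitrate transporter, had 16.9, 17 and 29.9 normalised reads in the control libraries, 8668, 6911 and 7868 under N deficiency and 67.4, 52.1 and 112 under P deficiency. It was high in the N-deficient libraries and raised less in the P-deficient ones, with N minus control at 8.50 and P minus control at 1.79. Its pooled value of 5.14 ± 1.83 was not called (adjusted p = 0.12). NRT2.1 lay on opposite sides of control, at 14.6, 11.3 and 10.9 in control, 1386, 1014 and 1220.4 under N and 4.73, 4.08 and 2.85 under P deficiency. The 1 called gene was NRT1.1B, a nitrate transporter and sensor, with 5411, 3807 and 5519 normalised reads in the control libraries, 497, 495 and 495 under N deficiency and 1492, 2247 and 1018 under P deficiency. It was below control in all 6 deficiency libraries, lower still under N, and fell by 2.49 ± 0.48 (adjusted p = 0.013), a call lost without control library 1 or 3 (adjusted p up to 0.062).

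Of 19 phosphate uptake and signalling genes, 1 fell (5.26%) and 0 rose by limma (4 at an unadjusted p, 0 by edgeR and 8 by DESeq2), and 11 differed between N and P. The fit of 3 group means called 10 of the 19 higher and 1 lower. SPX5, of the phosphate-sensing SPX family, was at 88.8, 69 and 51.6 in control, 85.2, 86.1 and 96.1 under N and 7667, 7145 and 6845 under P deficiency. The phosphate transporter PT6 was at 7.87, 5.67 and 13.6, 9.26, 19.8 and 16.2 and 1674, 1847 and 2499. Neither was called in the pool (adjusted p = 0.26 and 0.23). PHR3, a MYB factor of the phosphate starvation family, fell by 0.62 ± 0.13 with like values under N (-0.65) and P (-0.60), and lost its call without any 1 control (adjusted p up to 0.072). PHO1;2, which loads phosphate into the xylem, had 0.73 ± 0.20 (adjusted p = 0.052). Of 8 nitrogen assimilation genes, only Os08g0468100 passed. It carries nitrate reductase domains and had 3334, 3410.0 and 6631 normalised reads in the control libraries, 2477, 1883 and 2092 under N deficiency and 1604, 1537 and 1348 under P deficiency, below control in all 6, with a pooled difference of -1.24 ± 0.25 (adjusted p = 0.014).

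Of 8 strigolactone genes, 3 rose and 1 fell (37.5% and 12.5%, against 4.27% and 3.73% of all genes tested), with a median of 0.30. The 8 were listed by hand with earlier results of these data known, so these shares are not a test of the pathway. Besides NSP1, D10, a dioxygenase that cleaves carotenoids on the way to strigolactones, had 22.5, 19.8 and 19.9 normalised reads in the control libraries, 82.4, 69.2 and 70.4 under N deficiency and 170.3, 139 and 115 under P deficiency. It was above control in all 6 libraries and higher under P, with a pooled difference of 2.24 ± 0.30 (adjusted p = 0.0025) and N minus P of -0.91 (adjusted p = 0.033). NSP2, the GRAS partner of NSP1, had 18, 13.2 and 13.6 normalised reads in the control libraries, 84.3, 76.2 and 76.1 under N deficiency and 257, 223 and 43.7 under P deficiency. All 6 lay above control, P library 3 being lowest, and the rise of 2.73 ± 0.51 (adjusted p = 0.011) was lost without control library 2 (adjusted p = 0.059). D14, the strigolactone receptor, fell by 0.89 ± 0.15, from 26219.6, 24443 and 32301 to 15126, 12381 and 16486 and 14319, 14515 and 16779.7. D17, which acts just before D10, was at 0.58 ± 0.18 and was not called (adjusted p = 0.084), nor were D3 and D53, the F-box protein and the repressor of the signal.

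Sugar exporters of the SWEET family had 6 rises among 13 members (46.2%, against 4.27% of all genes) and 2 falls, with a median of 0.57, and there were 2, 2 and 3 rises without each control, 3 rises without N library 3 and 3 rises without P library 1. SWEET13, a sucrose exporter, had 71.9, 79.4 and 44.4 normalised reads in the control libraries, 627, 949.6 and 609.7 under N deficiency and 312, 266 and 213 under P deficiency. The N-deficient libraries were highest, the P-deficient ones lay between, and the pooled difference was 2.75 ± 0.45 (adjusted p = 0.0059). Of 82 proteins with the sugar transporter domain, 7 rose (2, 2 and 7 rises without each control) and 0 fell by limma (3 at an unadjusted p, 0 by edgeR and 0 by DESeq2), among them the neighbouring loci Os07g0582500 (1.47 ± 0.20) and Os07g0582400 (0.87 ± 0.15), which may share reads.

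Aquaporins, channels for water and small solutes, held 7 falls and 1 rise among 43 (16.3% and 2.33%), and 35 were not called. Over all genes tested 3.73% fell and 4.27% rose. The median of the aquaporins was -0.32. There were 0, 0 and 2 falls without each control and 4 and 3 falls without N libraries 1 and 2. TIP1;2, a channel of the vacuolar membrane, had 65602, 44115 and 30900.1 normalised reads in the control libraries, 10205, 6045 and 7497 under N deficiency and 13681, 15543 and 18718 under P deficiency. It fell by 2.01 ± 0.37 (adjusted p = 0.01), and the call was lost without control library 1 or 2 (adjusted p up to 0.059). Os01g0202800 rose from 37.1, 15.1 and 22.6 to 132, 141 and 219.7 and 109, 82.7 and 103, a difference of 2.37 ± 0.33.

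In the NRT1/PTR family, which moves nitrate, peptides and hormones, 11 of 88 rose and 3 fell (12.5% and 3.41%), with a median of 0.28. Over all genes tested these shares were 4.27% and 3.73%. In this family there were 2, 2 and 6 rises and 0, 1 and 0 falls without each control and 5 falls without P library 3. Among 41 potassium transporters and channels 3 rose and 3 fell (7.32% each), with 5 rises without P library 3. They included HKT1;1, a sodium transporter, which went from 57.3, 35.9 and 37.1 to 6.48, 8.90 and 13.3 and 13, 16.3 and 12.3, a change of -1.82 ± 0.31. MATE transporters, which export citrate and other small molecules, held 5 rises and 7 falls among 55 (9.09% and 12.7%). There were 4, 3 and 4 rises and 0, 3 and 3 falls without each control. Os03g0571700 of that family rose by 2.47 ± 0.40. The EamA-type transporter Os10g0210500 had 2879.9, 2568 and 2866 normalised reads in the control libraries, 137, 155 and 134 under N deficiency and 552, 469.6 and 978 under P deficiency. Its N minus P was -2.15, and its pooled fall of -3.20 ± 0.61 was lost without any 1 control (adjusted p up to 0.057).

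**Figure D4:**
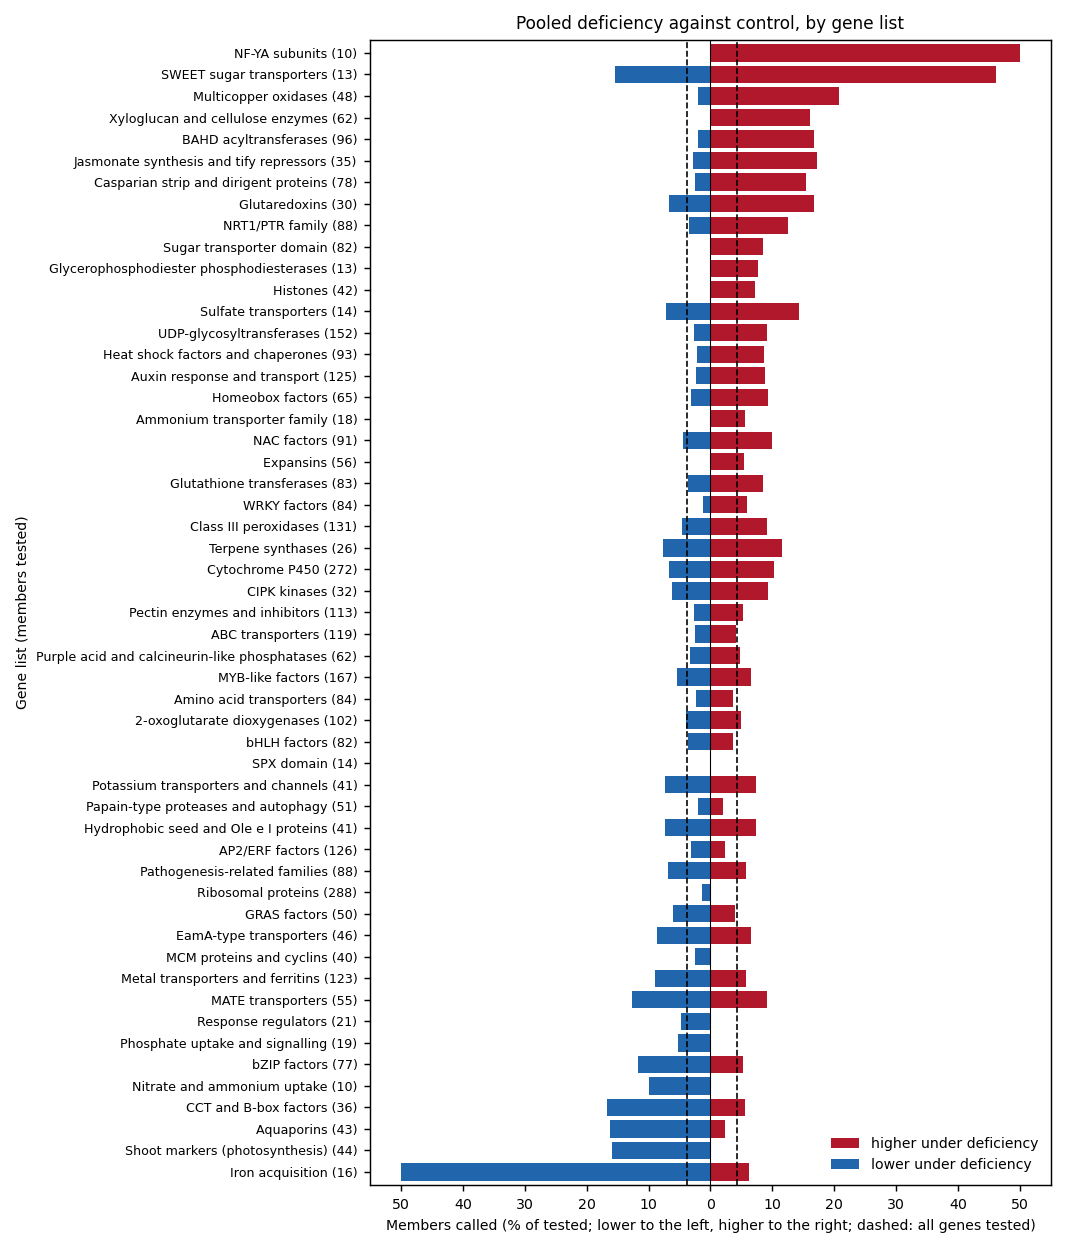
Bars give the percent of tested members called higher (right) or lower (left) for each list of at least 10 members, and dashed lines mark 4.27% and 3.73% for all genes tested. NF-YA subunits and SWEET transporters reach furthest to the right and iron acquisition furthest to the left.

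With all libraries, lists of genes that build and cross-link the cell wall held more rises than falls. So did all genes tested (4.27% and 3.73%). Shares of rises in pectin enzymes (5.31%) and expansins (5.36%) lay near that of all genes. Pectin enzymes had 1 rise and 2 falls without control library 2, and 6 and 6 without P library 3. Peroxidases had 6 and 6 without N library 3. Of 62 xyloglucan and cellulose enzymes 10 rose (16.1%) and 0 fell by limma (1 at an unadjusted p, 0 by edgeR and 0 by DESeq2), with a median of 0.30. There were 3, 1 and 5 rises without each control, and 13 without P library 3. BC1, a COBRA-like protein needed for strong secondary walls, had 97.8, 79.4 and 144 normalised reads in the control libraries, 275, 399 and 293 under N deficiency and 356, 233 and 254 under P deficiency. It was higher in all 6 libraries, with like values under N and P, and rose by 1.50 ± 0.21 (adjusted p = 0.0034). CESA4 and CESA7, cellulose synthases of secondary walls, rose by 1.25 ± 0.24 and 1.30 ± 0.25, and both calls were lost without control library 1 or 2 (adjusted p up to 0.067 and 0.072).

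Of 48 multicopper oxidases 10 rose and 1 fell (20.8% and 2.08%, against 4.27% and 3.73% of all genes tested), with a median of 0.18. There were 7, 6 and 7 rises without each control, and 13 rises without P library 3. LPR3, of the family that in Arabidopsis acts on root growth at low phosphate, had 69.7, 52.9 and 68.8 normalised reads in the control libraries, 272, 287 and 445 under N deficiency and 387, 450.2 and 356 under P deficiency. All 6 libraries lay above control and the N and P values overlapped, with a pooled difference of 2.49 ± 0.19 (adjusted p = 2.6e-04). Its neighbour Os01g0127200 rose by 2.81 ± 0.44, and the pair may share reads.

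Of 78 Casparian strip and dirigent proteins, which guide lignin to the endodermis and steer phenolic coupling, 12 rose and 2 fell (15.4% and 2.56%). Over all genes tested these shares were 4.27% and 3.73%. Without each control there were 3, 2 and 7 rises. Class III peroxidases, which oxidise wall phenolics, held 12 rises and 6 falls among 131 (9.16% and 4.58%), with a median of -0.01. There were 3, 2 and 7 rises and 2, 1 and 4 falls without each control, and 7, 7 and 6 rises without N libraries 1, 2 and 3. Os06g0547400, at 31640.0, 28976 and 22343 normalised reads in the control libraries, 7192, 9076 and 7492 under N deficiency and 11449.9, 9736 and 5960.1 under P deficiency, fell by 1.72 ± 0.21 (adjusted p = 0.002). Os06g0274800 rose by 1.84 ± 0.23, so members went both ways. BAHD acyltransferases, which attach acyl groups to phenolics and other metabolites, held 16 rises and 2 falls among 96 (16.7% and 2.08%), with a median of 0.23. There were 8, 7 and 10 rises without each control, and 22 rises without P library 3. Os06g0710700 of that family had 442, 349.6 and 567 normalised reads in the control libraries, 1937, 2520.3 and 2929.8 under N deficiency and 2122, 1613 and 1642 under P deficiency, with every deficiency library above control and a difference of 2.22 ± 0.21 (adjusted p = 7.2e-04). Among pectin enzymes and inhibitors 6 rose and 3 fell of 113 (5.31% and 2.65%, against 4.27% and 3.73% of all genes), with 2, 1 and 4 rises and 1, 2 and 1 falls without each control, 3 rises without N library 2 and 6 falls without P library 3. Among expansins, which loosen walls, 3 of 56 rose, with 1, 1 and 1 rises without each control.

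Among enzymes of detoxification and secondary metabolism, cytochromes P450 held 28 rises and 18 falls among 272 (10.3% and 6.62%, against 4.27% and 3.73% of all genes), with 10, 10 and 23 rises and 12, 7 and 8 falls without each control. UDP-glycosyltransferases held 14 and 4 among 152 (9.21% and 2.63%), with 7, 7 and 10 rises and 2, 2 and 0 falls without each control. Glutathione transferases held 7 and 3 among 83 (8.43% and 3.61%), with 4, 4 and 6 rises without each control. Os03g0283200, a glutathione transferase, had 92.2, 105 and 120.4 normalised reads in the control libraries, 769.6, 720.1 and 850.4 under N deficiency and 639.9, 515 and 779 under P deficiency. N and P values overlapped, and the difference was 2.73 ± 0.16 (adjusted p = 9.6e-05). In the same family Os10g0530400 fell by 2.03 ± 0.30. Glutaredoxins, small redox proteins that in Arabidopsis include nitrogen signals, held 5 rises and 2 falls among 30 (2, 2 and 3 rises without each control and 3 rises without N library 3), and Os05g0198200 rose by 1.18 ± 0.15 with N and P minus control at 1.21 and 1.16. The P450 Os02g0503900 fell by 2.43 ± 0.41, from 1860.4, 1624 and 613 to 107, 250.2 and 297 and 186, 264 and 356.

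Among regulators, NF-YA subunits are CCAAT-binding factors that in plants are targets of the microRNA miR169. They rose in 5 of 10 cases (50%, against 4.27% of all genes tested), with a median of 0.53. There were 2, 2 and 3 rises without each control and 3 rises without N library 2. Os02g0776400 had 425, 426 and 534 normalised reads in the control libraries, 1979, 1489.6 and 1990.0 under N deficiency and 1063, 1137 and 854 under P deficiency. Every deficiency library exceeded every control, the N-deficient ones most, with a difference of 1.55 ± 0.26 (adjusted p = 0.007) and N minus P of 0.83. Os07g0608200 rose by 0.86 ± 0.13 with N and P closer together.

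NAC factors held 9 rises and 4 falls among 91 (9.89% and 4.40%, against 4.27% and 3.73% of all genes tested). There were 2, 3 and 6 rises and 2, 2 and 2 falls without each control. Falls came to 2 without N library 1, 2 or 3 and to 2 without P library 2. NAC5, a factor known from stress responses, had 8223, 6158 and 8872 normalised reads in the control libraries, 3043, 2556 and 2742 under N deficiency and 2770.2, 2608 and 2136 under P deficiency. It fell by 1.54 ± 0.14 (adjusted p = 6.6e-04), with N and P overlapping, while Os05g0563000 rose by 1.45 ± 0.22. MYB-like factors held 11 rises and 9 falls among 167 (6.59% and 5.39%), with 3, 2 and 10 rises without each control and 7 rises without N library 3. Falls without each control were 6, 7 and 6, so falls outnumbered rises without control library 1 or 2. Os04g0665600, with the MYB-CC domains that phosphate starvation regulators carry, had 2348, 2138 and 2844 normalised reads in the control libraries, 735, 529 and 535 under N deficiency and 671, 743 and 737 under P deficiency. All 6 lay below control, by -1.90 ± 0.15 (adjusted p = 3.1e-04), and N minus P was -0.27 (adjusted p = 0.41). bZIP factors held 4 rises and 9 falls among 77 (5.19% and 11.7%), with 2, 3 and 2 rises and 3, 7 and 3 falls without each control. Rises came to 2 without N library 1, 2 or 3 and to 2 without P library 1.

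CCT and B-box factors, families that include clock and light regulators, held 2 rises and 6 falls among 36 (5.56% and 16.7%). Over all genes tested these shares were 4.27% and 3.73%. There were 3, 3 and 3 falls without each control and 3 falls without N library 2. Os02g0148000 had 362, 453 and 939.9 normalised reads in the control libraries, 38, 24.7 and 17.1 under N deficiency and 89.9, 67.4 and 95.9 under P deficiency. All 6 were below control, the N-deficient ones lowest, with a difference of -3.51 ± 0.55 (adjusted p = 0.0053). Its control libraries too stood in the order of the summed photosynthesis markers, as did those of 18 of the 73 named falls. The share of all genes tested with this order was not counted, so nothing is read from the 18. The P-deficient libraries overlapped control library 1 in the marker sum, whereas for Os02g0148000 they lay below every control. The part of shoot-type RNA in the fall of Os02g0148000 was not tested.

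Jasmonate synthesis genes and tify repressors, which hold the jasmonate response in check, held 6 rises and 1 fall among 35 (17.1% and 2.86%). Over all genes tested these shares were 4.27% and 3.73%. The median of the list was 0.27. There were 0, 0 and 2 rises without each control and 3 rises without N library 2. AOC, allene oxide cyclase of jasmonate synthesis, rose by 0.68 ± 0.12 and lost its call without control library 1 or 2 (adjusted p up to 0.06). Auxin response and transport genes held 11 rises and 3 falls among 125 (8.8% and 2.4%). There were 6, 5 and 9 rises and 1, 2 and 1 falls without each control, and 5, 1 and 1 falls without N libraries 1, 2 and 3. The efflux carrier-like gene Os09g0491740 fell by 1.42 ± 0.20. CIPK kinases, partners of calcium sensors in nutrient signalling, held 3 rises and 2 falls among 32 (9.38% and 6.25%). Os05g0334750 rose from 31.5, 36.8 and 33.5 to 153, 192 and 199.8 and 97, 107 and 67.4, by 1.87 ± 0.32.

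**Figure D5:**
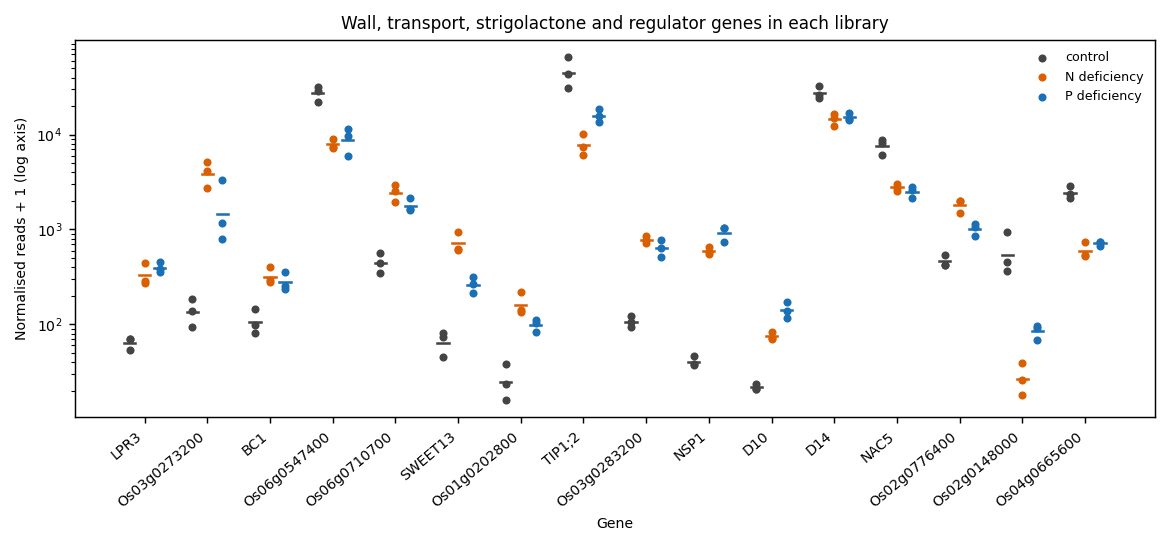
Normalised reads plus 1 on a log axis for 16 genes of walls, transport, strigolactone and regulation, with 3 points per group and a bar at their geometric mean. Control points lie wholly to 1 side of the N and P points for each gene, a separation that the choice of genes required, hand-listed loci aside.

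Of 288 ribosomal proteins 4 fell (1.39%, against 3.73% of all genes) and 0 rose by limma (4 at an unadjusted p, 0 by edgeR and 2 by DESeq2), with a median of 0.03, and there were 3, 1 and 1 falls without each control, 2 falls without N library 1, 2 or 3 and 2 falls without P library 2. Of 40 MCM proteins and cyclins, genes of DNA replication and the cell cycle, 1 fell, and of 42 histones 3 rose, all 3 under 1 on the log2 scale, with 0, 0 and 0 rises without each control and 5 rises without P library 1. Os01g0633000, ribosomal protein L31 by its domain, fell by 0.86 ± 0.15.

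Annotation, read level and position were then set beside the calls. Genes annotated as protein coding made up 95.1% of rises and 88.8% of falls, against 86.5% of all genes tested. Non-coding RNAs were 9 of the rises and 36 of the falls (0.64% and 2.94%, against 7.82% of all genes tested). Unannotated loci were 59 and 101 (4.21% and 8.25%, against 5.69%). Median control levels were 228 normalised reads for rises and 374 for falls, against 130 for all genes tested, but the test uses these levels and calls well-read genes more easily. Called genes also lay side by side. Of the rises, 15.6% had a risen neighbour on the chromosome, against 8.29% of all genes tested, and 19.0% of the falls had a fallen neighbour, against 7.24%. There were 28 runs of at least 3 neighbouring genes called in the same direction, 13 higher and 15 lower, and 9 of them held genes that overlap in position. The longest, of 5 rises, lay on chromosome 1 from 26202814 to 26238284 and began with a pair of GDSL lipase genes, with differences of 1.29 to 3.21. Tandem copies and overlapping genes may share reads.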

How the data were processed

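Total RNA of 9 root samples was sequenced from TruSeq libraries, per the labels' protocols. The authors deposited 2 tables, of 35128 genes (N deficiency against control) and 35059 (P deficiency against control), and both include the 3 controls. Per the submitters' processing notes, HISAT2 2.0.5 was used, and the only assembly named there is hg38, a human one. Neither the rice build and annotation nor the counter, strand setting and way of scaling were given in the sources used here. The deposited values are a signal, read counts divided by 1 size factor per library and table. Whole reads were recovered for 100% of values within 0.001, and 0 control reads differed between the tables.

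The recovered reads of the 34285 shared genes were divided by median-of-ratios size factors over the 9 libraries. Genes with a mean of at least 1 in 1 group were tested on log2(value + 1) with limma 3.58.1 (R 4.3.3) and an intensity trend, 6 deficiency against 3 control libraries. N minus P, and each deficiency minus control, came from a fit of 3 group means. On simulated reads of the pooled comparison over 31955 genes, 77% of 100 genes changed 2-fold and 95% of 100 changed 4-fold were recovered, with 17 false calls. The changed genes had a control mean of at least 20, and N and P were given the same change. These shares therefore do not cover lower genes or genes whose N and P levels differ. The alternatives were edgeR 4.0.16 and DESeq2 1.42.0 on recovered reads, TMM scaling, a pseudocount of 0.1, filters of none and 10, 3 group means, a replicate block and each library left out. The list counts without P library 3 were chosen after seeing the data.

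Named genes were the 12 rises and 12 falls with the largest smaller-of-N-and-P difference among called genes with a mean of at least 20 in the higher group, no overlap between pool and control and an informative annotation. Added were up to 3 called members per list by the same ranking, and hand-listed loci of iron, nitrate, phosphate, nitrogen assimilation and strigolactone whatever their test. Other lists were matched on deposited domain text. The members and lists were chosen with earlier results of these data known. Of 73 hand-named loci, 56 had their name in the deposited tables or in a RefSeq table (ASM3414082v1, used for names only) on the same chromosome. The 17 others, among them NSP1, NSP2, TOM1, HRZ2, FER1, FER2 and NRT1.1B, are called by names from background knowledge. Libraries of a group differed by more than counting noise (chi-square per degree of freedom 8.24 to 49.8), so none was counted as a repeat of another.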

Additional observations from a re-analysis of the deposited data

Results flagged for a closer look

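Named called genes were picked out where N and P differed in the fit of 3 group means (limma, adjusted p under 0.05). Genes that 1 deposited table alone holds were added.

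Among the named rises, N minus P was below 0, so P exceeded N, for Os10g0116800 (-2.96), Os12g0576600 (-4.12), the P450 Os06g0570566 (-3.87), the glycosyltransferase Os01g0638000 (-2.15) and D10 (-0.91). Os06g0570566 had 0 reads in each control. N exceeded P for the unannotated terpene synthase locus on chromosome 4 (3.31), the ferritin-like Os04g0404400 (2.37), SWEET13 (1.45), the CIPK kinase Os05g0334750 (1.01), the NF-YA subunits Os02g0776400 (0.83) and Os03g0647600 (0.81), the sugar transporter Os04g0454200 (0.82) and the ABC transporter Os05g0384600 (0.68). Some of these pooled calls were lost under an alternative. That of Os06g0570566 was lost in edgeR and without any 1 control or P library 1 or 3 (adjusted p up to 0.13). Those of Os01g0638000 and Os05g0384600 were lost without any 1 control, and without P library 1 or without N library 1 or 2 (adjusted p up to 0.11 for each). Os04g0454200 and Os03g0647600 lost theirs without control library 1 or 2 (adjusted p up to 0.07 and 0.063).

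Of all 65 falls that differed between N and P, N deficiency lay further from control for 61. Among the named ones, N minus P was below 0 in each case, so the level was lower under N deficiency. These were NAS1 (-5.42), NAS2 (-4.11), IRO2 (-1.65), NAAT1 (-0.98), Os02g0137700 (-2.23), NRT1.1B (-1.60), the EamA-type transporter Os10g0210500 (-2.15), the chlorophyll-binding genes Os04g0690800 (-1.72) and Os09g0346500 (-1.34), the CCT factor Os02g0148000 (-1.68), the MYB-like Os06g0348800 (-1.23), the protease Os04g0670500 (-1.14), the glutathione transferase Os10g0530400 (-0.91) and the response regulator Os09g0532400 (-0.71). The pooled call of Os04g0690800 was lost without any 1 control or N library 2, and that of Os09g0346500 without control library 2 or 3 (adjusted p up to 0.12 and 0.11).

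The N table alone holds 843 genes and the P table alone 774, and these entered no comparison. Os06g0325200, with a sugar transporter domain, had 101, 128 and 73 reads in the P-deficient libraries (302 in all) and 0 in each control. An unannotated locus on chromosome 3, 16339670 to 16340895, had 21, 15 and 8 (44 in all) and 0 in each control. Os02g0113300, with a domain of unknown function, had 21, 8 and 12 reads under N deficiency (41 in all) and 1 read over the controls. Their reads in the libraries of the other deficiency were not analysed here.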

How the results depend on the processing

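The main counts of 1401 higher, 1224 lower and 1241 differing between N and P stayed within 1.5 times under another pseudocount, filter or scaling and in edgeR. DESeq2 gave 2270, 1915 and 2278, and group means fitted apart gave 2192 higher and 1906 lower. Leaving out 1 library gave 482 to 1743 higher, 477 to 1561 lower and 689 to 1575 between N and P, where the counts without N library 1, N library 3 and P library 2 were 740, 689 and 753. Without control 1, 2 or 3, 37.1%, 35.6% and 46.8% of the 2625 calls were called again, in the same direction, with 2 controls left to estimate the control level. Without control 3, 61.5% of calls were higher, against 53.4%. By the rule that every same-numbered pair must correlate above 0.1, replicate numbers did not pair the samples. Correlations of same-numbered deviations were -0.06 to 0.22, and 5 of 9 exceeded 0.1. Of 9 libraries 6, those numbered 2 and 3, correlated best with a library of their own number, and pairs of number 2 with 3 were at -0.24 to -0.08, a hint from the data only. A replicate block gave 1178 higher, 1017 lower and 1522 between N and P. Under it 1 of 44 photosynthesis markers fell, and of the genes given in the text Os12g0576600, NAS1, NAS2, Os04g0690800, Os06g0570566 and Os01g0638000 lost their calls. Of 157 named genes called, 82 were called under all 18 alternatives, no call changed sign, and 25 of 53 uncalled ones passed in at least 1.

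Uncalled genes changed sign as follows. In edgeR with TMM, edgeR with DESeq2 size factors and DESeq2, NADH-GOGAT2 was at 1.09, 1.09 and 1.08 (main -0.11), SPX-MFS2 at 0.24, 0.25 and 0.26 (main -1.38) and the strigolactone P450 MAX1 at 0.07, 0.08 and 0.10 (main -0.32). The ammonium transporter Os02g0620500 was at -0.73 with a pseudocount of 0.1 (main 0.65). With 1 library left out, ranges were -0.60 to 0.46 for NADH-GOGAT2, -0.12 to 1.28 for Os02g0620500, -0.09 to 0.05 for SPX4, -0.04 to 0.33 for PHO2, -0.10 to 0.15 for D53, -0.07 to 0.19 for RCc3, -0.10 to 0.04 for QHB and -0.21 to 0.10 for NRT1.1A. The cause was not tested. Low genes limit precision, since 1 read is about 1 normalised read.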

Other observations

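Shares called in the gene families below stand against 4.27% higher and 3.73% lower over all genes tested, and many are near them. Heat shock factors and chaperones held 8 rises and 2 falls among 93 (8.60% and 2.15%), with 4, 3 and 4 rises without each control and 5 rises without N library 2. The Hsp70 gene Os03g0277300 rose by 1.77 ± 0.21, while the heat shock factor Os02g0232000 fell by 1.60 ± 0.22 and the small heat shock protein Os04g0445100 fell by 2.09 ± 0.30. Pathogenesis-related families held 5 rises and 6 falls among 88 (5.68% and 6.82%), with 2, 2 and 4 rises and 3, 3 and 6 falls without each control. Os07g0126500, of the cysteine-rich secretory family, went from 210.2, 214 and 163 in control to 43.5, 51.4 and 47.6 under N and 71, 76.6 and 82.6 under P deficiency, and called neighbours of it at the same locus may share reads. Os03g0103200, a hydrophobic seed protein by its domain, rose by 2.33 ± 0.30 (adjusted p = 0.0023) and was among the well-read genes, with 8375, 6989 and 11126 in control, 26090.0, 34076 and 59428 under N and 43156, 45213 and 67860.5 under P deficiency. The papain-type protease Os04g0670500 fell by 2.35 ± 0.38 in a family of 51 with 1 rise and 1 fall.

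Homeobox factors held 6 rises and 2 falls among 65 (9.23% and 3.08%), with 1, 1 and 3 rises without each control, 3, 2 and 2 rises without N libraries 1, 2 and 3, 3 rises without P library 1 and 4 falls without P library 3, and Os03g0124000 rose by 2.05 ± 0.28. WRKY factors held 5 and 1 among 84, with 0, 0 and 2 rises without each control and 2, 1 and 2 rises without N libraries 1, 2 and 3. bHLH factors held 3 and 3 among 82, with 1, 2 and 1 rises and 1, 2 and 2 falls without each control and 1 rise without N library 1, 2 or 3. AP2/ERF factors held 3 and 4 among 126, with 0, 0 and 2 rises and 3, 2 and 2 falls without each control and 1 rise without N library 2. GRAS factors held 2 and 3 among 50, with 0, 1 and 1 falls without each control. Of 21 response regulators 1 fell, Os09g0532400, by -1.42 ± 0.23. Among transporters, amino acid transporters held 3 rises and 2 falls among 84, with 1, 1 and 2 rises without each control, 1 rise without N library 1, 2 or 3, 5 rises without P library 3 and 4 falls without P library 3, and Os01g0908600 rose by 1.86 ± 0.22. ABC transporters held 5 and 3 among 119, with 2, 2 and 3 rises and 2, 0 and 0 falls without each control, 3 rises without N library 1 or 2 and 10 rises without P library 3. EamA-type transporters held 3 and 4 among 46, with 1, 0 and 3 rises and 1, 2 and 1 falls without each control and 5 rises without P library 2. There were sulfate transporter calls of 2 rises and 1 fall among 14 (3 falls without P library 3), and 1 rise among 18 in the ammonium transporter family. Purple acid and calcineurin-like phosphatases held 3 and 2 among 62, with 2, 1 and 1 rises without each control and 4 falls without P library 1, and the fit of 3 group means called 14 higher. Glycerophosphodiester phosphodiesterases held 1 rise among 13, and 5 in that fit. 2-oxoglutarate dioxygenases held 5 and 4 among 102, with 3, 3 and 5 rises and 1, 1 and 1 falls without each control and 9 falls without P library 3. Terpene synthases held 3 and 2 among 26, with 0, 0 and 4 rises without each control and 5 rises without P library 2. In the SPX domain list, 0 of 14 were called by limma (5 higher at an unadjusted p, 0 by edgeR and 8 by DESeq2), with a median of 1.65, and the fit of 3 group means called 9 higher.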
